A study of Mus musculus with 18 samples.

Results

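The 10 genes of the tumor vasculature, Kdr, Flt1, Pecam1, Cdh5, Tek, Angpt2, Apln, Esm1, Vegfc and Lyve1, were followed through 15 mouse mammary tumors and 3 normal mammary glands. They were chosen by name as endothelial and angiogenic tip genes and make up 10 of the 55450 genes counted, and all 10 were among the 19186 genes that passed the filter on low counts. RNA was sequenced from whole tissue, with 1 library per mouse. The B1/P/Rbf tumors (n = 5) arose in Brca1fl/fl/Trp53fl/fl/TgK18GT121Tg/+ mice, the B1/P tumors (n = 5) in Brca1fl/fl/Trp53fl/fl mice and the P/Rbf tumors (n = 5) in Trp53fl/fl/TgK18GT121Tg/+ mice, and the normal glands (n = 3) came from wild type mice. All animals were females labelled C57Bl/6, with C57Bl/6 J named as the background in the study's methods. Their ages at collection are not in the labels. All 3 tumor groups thus share the deletion of Trp53. In the study's methods the floxed alleles were recombined by an adenovirus carrying Cre, injected into the ducts of a mammary gland. The T121 protein, a fragment of a viral oncoprotein, binds and inactivates pRb, p107 and p130, and its transgene is driven by the keratin 18 promoter of luminal epithelial cells. Which cells of a tissue the members' RNA came from was not measured.

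Blood vessels are lined by endothelial cells, which carry the junction proteins VE-cadherin (Cdh5) and CD31 (Pecam1) and the receptors for vascular endothelial growth factor (VEGF). When vessels sprout, a tip cell leads each new branch under the pull of VEGF, and tip cells are known for Angpt2, Apln and Esm1, while quiescent vessels are held stable by the receptor Tie2 (Tek) and its ligand angiopoietin 1. Lymphatic vessels form from endothelium that responds to VEGF-C, and their cells carry the hyaluronan receptor Lyve1, which some tissue macrophages carry as well.

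The members split into sets that moved in opposite directions in tumors. Angpt2, Apln and Esm1 were higher than in normal gland in every tumor of every group, and their group means were highest in B1/P tumors. Kdr, Pecam1 and Tek were lower than in normal gland in every tumor, with no difference called between the tumor groups. The same held for Cdh5, though it was called lower than in gland only in P/Rbf tumors. Flt1 lay on both sides of its level in normal gland. Vegfc was lower in both groups with T121 than in B1/P tumors and Lyve1 in P/Rbf tumors, with a wide spread among the B1/P mice. Levels are given as CPM, counts scaled to one common library size with factors from the trimmed mean of M values (TMM). These factors were 0.788 to 0.858 in glands and 0.952 to 1.11 in tumors. Without them some tumors exceeded the lowest gland in Kdr, Pecam1 and Cdh5. A gene was called at an adjusted p of 0.05 or less over all 19186 genes tested with edgeR. In whole tissue, fewer cells of a type and less RNA per cell cannot be told apart.

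**Figure D1:**
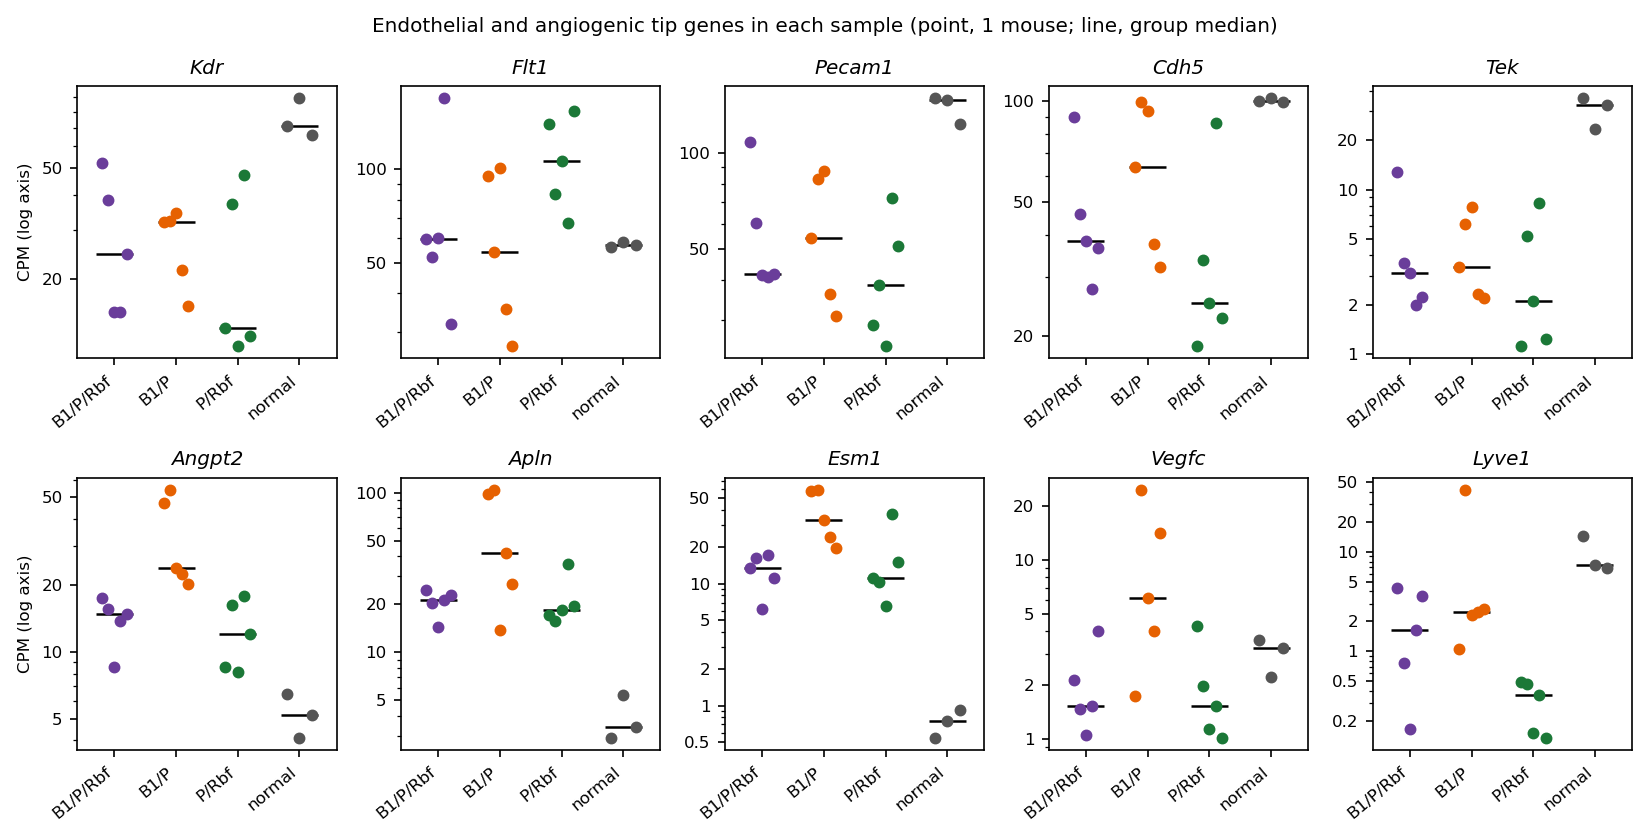
CPM of the 10 genes on a log axis, 1 point per mouse, with B1/P/Rbf, B1/P, P/Rbf and normal gland on the horizontal axis and a line at each group's median. Angpt2, Apln and Esm1 sit above the normal glands in all 15 tumors, Kdr, Pecam1, Cdh5 and Tek below them in all 15 on this TMM scale. Without TMM some tumors pass the lowest gland in Kdr, Pecam1 and Cdh5.

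Across the list, tumors of each group were compared with the same 3 normal glands, so these 3 comparisons share their controls. In B1/P/Rbf tumors 3 members were called higher (Angpt2, Apln, Esm1), against 17.1% of all genes tested, and 3 lower (Kdr, Pecam1, Tek), against 20.0%. In B1/P tumors 3 were higher (Angpt2, Apln, Esm1) against 16.8% of all genes, and 3 lower (Kdr, Pecam1, Tek) against 16.9%. In P/Rbf tumors 3 were higher against 17.4%, and 5 were lower (Kdr, Pecam1, Cdh5, Tek, Lyve1) against 20.3%. Between tumor groups, both comparisons with B1/P rest on the same 5 B1/P tumors. B1/P/Rbf against B1/P gave 0 members higher, where 7.36% of all genes were, and 4 lower (Angpt2, Apln, Esm1, Vegfc), where 9.29% were. P/Rbf against B1/P gave 0 higher, where 8.43% of all genes were, and 4 lower (Angpt2, Apln, Vegfc, Lyve1), where 10.8% were. With limma-voom each comparison with B1/P gave 2 lower. A term dividing libraries numbered 1 to 8 from 9 to 18 gave 4 lower in B1/P/Rbf, and 0 lower and 1 higher in P/Rbf against B1/P. B1/P/Rbf against P/Rbf gave 0 members in either direction by edgeR, with 0.219% of all genes higher and 0.0625% lower. In that last comparison 1 member (Lyve1) had an unadjusted p under 0.05, at a log2 fold change of 2.68 (adjusted p = 0.191 by edgeR). DESeq2 called it higher (2.70, adjusted p = 0.0487), while other alternative fits gave as little as 0.13 (adjusted p up to 0.986). The median log2 fold change of the members was -0.85 in B1/P/Rbf against B1/P and -1.04 in P/Rbf against B1/P, where the medians of all genes were -0.06 and -0.05. Against normal gland the members' medians were -0.82, 0.11 and -1.01 for B1/P/Rbf, for B1/P and for P/Rbf tumors, and those of all genes were 0.05, 0.12 and 0.05.

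**Figure D2:**
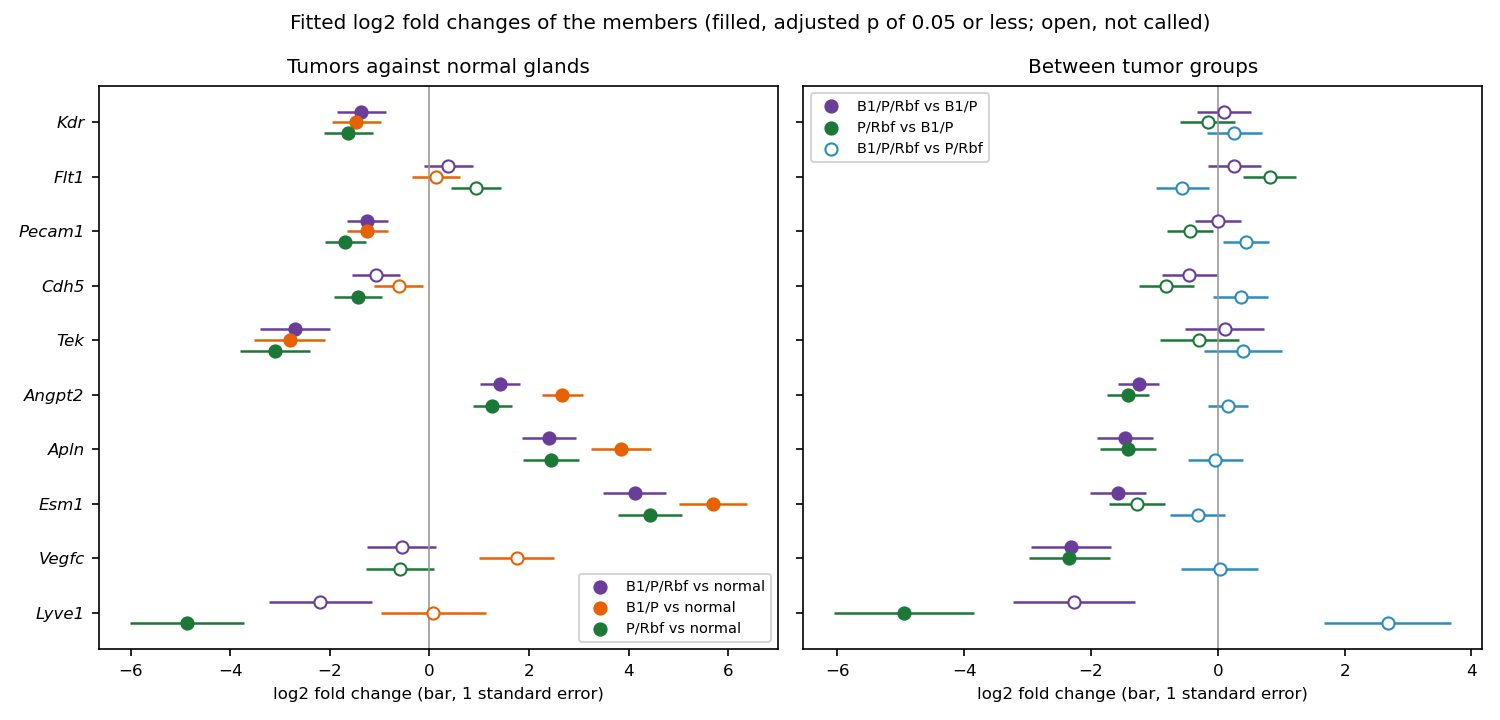
Fitted log2 fold changes of the 10 genes with bars of 1 standard error, tumors against normal glands on the left and tumor groups against each other on the right, filled where called. Esm1 in B1/P tumors reaches 5.70 and Lyve1 in P/Rbf tumors -4.87 against normal gland.

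Kdr encodes VEGFR2, the main signalling receptor for VEGF on blood endothelium (chromosome 5, 75932827 to 75978458, minus strand, GRCm38). It stood at 71.0, 89.3 and 66.2 CPM in the 3 normal glands. In B1/P/Rbf tumors it was 52.3, 38.6, 15.3, 15.2 and 24.6 CPM, in B1/P tumors 32.0, 32.3, 34.5, 21.6 and 16.0 CPM, and in P/Rbf tumors 13.3, 37.4, 11.5, 47.2 and 12.5 CPM. On the TMM scale the highest tumor thus lay under the lowest gland, and the tumor groups overlapped one another. Without TMM, B1/P/Rbf tumor 1 had 1844 of 33686533 counts, a larger share than in normal gland 3 (1955 of 37516292). Kdr fell by 1.37 on the log2 scale in B1/P/Rbf tumors (SE 0.49, adjusted p = 0.035), by 1.47 in B1/P tumors (SE 0.49, adjusted p = 0.0272) and by 1.63 in P/Rbf tumors (SE 0.49, adjusted p = 0.0142). Exact two-sided permutation tests gave p = 0.0357 for each, which is the smallest that 5 against 3 mice allow. The B1/P/Rbf and B1/P calls were lost without TMM scaling (adjusted p = 0.11 and 0.0794), and the B1/P/Rbf call in a fit with a library term that divides libraries numbered 1 to 8 from 9 to 18 (-2.18, adjusted p = 0.0642). Leaving out single mice ended the B1/P/Rbf call (any gland or B1/P/Rbf tumors 3, 4 or 5; adjusted p up to 0.127), the B1/P call (any gland or B1/P tumors 4 or 5; up to 0.0987) and the P/Rbf call (normal gland 2; 0.0651).

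Pecam1, the adhesion protein CD31 used to stain vessels (chromosome 11, 106654217 to 106750628, minus strand), was at 148, 146 and 123 CPM in normal glands. It was 108, 60.5, 41.4, 41.0 and 41.7 CPM in tumors of B1/P/Rbf, 54.2, 83.0, 87.8, 36.3 and 31.0 CPM in those of B1/P, and 28.9, 38.5, 24.9, 72.4 and 51.1 CPM in P/Rbf tumors. No tumor reached a gland on the TMM scale, and B1/P/Rbf tumor 1 came closest. Without TMM that tumor had 3824 of 33686533 counts, a larger share than in normal gland 3 (3645 of 37516292). Pecam1 fell by 1.25 on the log2 scale in B1/P/Rbf tumors (SE 0.41, adjusted p = 0.0227), by 1.25 in B1/P tumors (SE 0.41, adjusted p = 0.0245) and by 1.69 in P/Rbf tumors (SE 0.41, adjusted p = 0.00354). The first 2 of these calls were lost without TMM scaling (adjusted p = 0.0935 and 0.0913), and when normal gland 1 or 2 was left out (up to 0.0734 and 0.0737). They were also lost without B1/P/Rbf tumors 3, 4 or 5 (0.0502 to 0.0515) and without B1/P tumors 4 or 5 (0.0529 and 0.0522), and the P/Rbf call passed in all alternatives run. With the library term the falls in B1/P/Rbf and B1/P tumors were larger, at -2.40 and -2.05 (adjusted p = 0.0108 and 0.0066).

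Cdh5, the VE-cadherin of endothelial junctions (chromosome 8, 104101625 to 104144511, plus strand), stood at 100, 102 and 99.4 CPM in normal glands. It was 89.9, 46.3, 38.4, 27.7 and 36.6 CPM in tumors of B1/P/Rbf, 63.8, 99.3, 93.3, 37.7 and 32.1 CPM in those of B1/P, and 18.7, 33.7, 25.1, 86.3 and 22.6 CPM in P/Rbf tumors. On the TMM scale all 15 tumors lay under the lowest gland, B1/P tumor 2 only just. Without TMM that tumor had 3351 of 32633418 counts, a larger share than in normal gland 2 (3109 of 35636685). Cdh5 fell by 1.43 on the log2 scale in P/Rbf tumors (SE 0.48, adjusted p = 0.0276), a call that was lost without TMM scaling (adjusted p = 0.0719) and without any 1 of the 3 glands or P/Rbf tumors 1, 3 or 5 (adjusted p = 0.0579 to 0.0788). The log2 fold change was -1.07 in B1/P/Rbf tumors (SE 0.48, adjusted p = 0.0917) and -0.62 in B1/P tumors (SE 0.49, adjusted p = 0.339), and neither was called. The former passed with limma-voom (adjusted p = 0.0343), with the study's filter (0.0404), in a fit of only the groups compared (0.0291), with a library term (-2.37, adjusted p = 0.0323) and without B1/P/Rbf tumor 1 (-1.43, adjusted p = 0.0279). The B1/P value ran from -1.53 to -0.27 over the alternative fits and passed in none (adjusted p of at least 0.0666).

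Tek, the angiopoietin receptor Tie2 of stable vessels (chromosome 4, 94739289 to 94874976, plus strand), showed the largest fall of the 4. It was 36.0, 23.5 and 33.0 CPM in normal glands. The B1/P/Rbf tumors had 12.8, 3.56, 3.12, 2.00 and 2.24 CPM, the B1/P tumors 3.37, 6.16, 7.87, 2.31 and 2.21 CPM, and the P/Rbf tumors 1.12, 5.24, 2.10, 8.29 and 1.23 CPM. Tek fell 6.49-fold in B1/P/Rbf tumors (log2 fold change -2.70, SE 0.70, adjusted p = 0.00647), 7.02-fold in B1/P tumors (-2.81, SE 0.71, adjusted p = 0.00563) and 8.56-fold in P/Rbf tumors (-3.10, SE 0.71, adjusted p = 0.00254). All 3 calls passed in every alternative in which Tek was tested, with adjusted p values of at most 0.0237, 0.0212 and 0.0107. Without B1/P/Rbf tumor 1, the tumor with the most Tek, the B1/P/Rbf value was -3.49, and with the library term it was -4.06 and the B1/P value -3.77.

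Between tumor groups none of Kdr, Pecam1, Cdh5 and Tek was called. For B1/P/Rbf against B1/P the log2 fold changes were 0.10 for Kdr (SE 0.43), 0.00 for Pecam1 (SE 0.36), -0.45 for Cdh5 (SE 0.43) and 0.11 for Tek (SE 0.62). For P/Rbf against B1/P they were -0.16, -0.44, -0.81 and -0.29, with the same standard errors. Cdh5 in P/Rbf against B1/P tumors had an adjusted p of 0.192, and without P/Rbf tumor 4, the P/Rbf tumor with the most Cdh5, it was called at -1.38 (adjusted p = 0.0216).

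Flt1 encodes VEGFR1, which binds VEGF tightly and signals weakly, and a soluble form of it traps the ligand (chromosome 5, 147561604 to 147726011, minus strand). Counts per gene do not separate the membrane and soluble forms. Flt1 stood at 56.4, 58.4 and 57.1 CPM in normal glands. It was 59.9, 52.4, 60.2, 169 and 31.8 CPM in tumors of B1/P/Rbf, 94.9, 54.2, 101, 35.6 and 27.1 CPM in those of B1/P, and 140, 83.3, 106, 67.4 and 154 CPM in P/Rbf tumors. The 5 P/Rbf tumors all lay above the 3 glands, whereas the other tumors fell on both sides of them. In the fit over all samples Flt1 passed the test in none of the 6 comparisons: the log2 fold change against normal gland was 0.38 in B1/P/Rbf (SE 0.49, adjusted p = 0.573), 0.13 in B1/P (SE 0.49, adjusted p = 0.864) and 0.94 in P/Rbf tumors (SE 0.50, adjusted p = 0.149). The exact permutation test for P/Rbf against normal gland gave p = 0.0357, the smallest possible with 5 against 3. A fit of only these 2 groups called it (0.94, adjusted p = 0.0295). P/Rbf against B1/P tumors gave 0.82 (SE 0.42, adjusted p = 0.179), and 1.81 with the library term (adjusted p = 0.0407).

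The 300 bases around the transcription start (250 before, 50 after) were read from RefSeq on GRCm38.p6 for the 6 members that the promoter table held, Kdr, Flt1, Tek, Apln, Esm1 and Vegfc, and no window was matched for Pecam1, Cdh5, Angpt2 and Lyve1. Motifs searched on both strands were the core of the hypoxia response element, in its forms ACGTG and GCGTG, and the core GGAAG bound by ETS factors, the family of endothelial regulators that holds Erg. Kdr and Tek are shown as members that fell together in tumors, in chr5:75978406-75978705 on the minus strand and chr4:94739039-94739338 on the plus strand. Each is written 5′ to 3′ with all matches in capitals, and no matches overlap in the windows printed.
Kdr: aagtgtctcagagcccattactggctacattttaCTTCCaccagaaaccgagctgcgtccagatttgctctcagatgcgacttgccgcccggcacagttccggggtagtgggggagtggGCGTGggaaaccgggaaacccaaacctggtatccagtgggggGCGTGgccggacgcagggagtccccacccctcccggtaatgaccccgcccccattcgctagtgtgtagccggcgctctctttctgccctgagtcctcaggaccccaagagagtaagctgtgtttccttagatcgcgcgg
Tek: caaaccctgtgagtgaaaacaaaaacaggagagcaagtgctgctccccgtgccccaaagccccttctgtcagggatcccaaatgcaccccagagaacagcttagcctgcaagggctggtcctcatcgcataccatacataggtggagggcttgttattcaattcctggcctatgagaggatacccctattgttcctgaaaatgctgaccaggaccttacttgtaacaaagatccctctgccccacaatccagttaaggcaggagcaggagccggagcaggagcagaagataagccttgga
The Kdr window held GCGTG at 131 and 89 bases before the start, and 1 match to GGAAG, on the opposite strand. The Tek window held no match to any of the 3. Of all 32851 windows in the table, 19.6% held ACGTG, 32.4% GCGTG and 71.4% GGAAG on either strand, so a match or its absence describes these letters only.

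The tip-cell genes went the other way. Esm1 encodes endocan, a secreted proteoglycan that marks tip cells (chromosome 13, 113209659 to 113218098, plus strand). It was low in normal glands, at 0.547, 0.753 and 0.914 CPM, from 14, 23 and 27 read pairs. In B1/P/Rbf tumors it was 13.5, 16.3, 6.20, 17.3 and 11.2 CPM, in B1/P tumors 57.1, 58.7, 33.5, 24.3 and 19.7 CPM, and in P/Rbf tumors 11.2, 10.4, 6.50, 37.0 and 15.1 CPM. Every tumor exceeded every gland. Esm1 was 17.4-fold higher in B1/P/Rbf tumors (log2 fold change 4.12, SE 0.63, adjusted p = 8.01e-05), 52.0-fold higher in B1/P tumors (5.70, SE 0.68, adjusted p = 9.53e-06) and 21.6-fold higher in P/Rbf tumors (4.43, SE 0.64, adjusted p = 4.54e-05).

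Between tumor groups, all 5 B1/P/Rbf tumors had less Esm1 than all 5 B1/P tumors (log2 fold change -1.58, SE 0.44, adjusted p = 0.022; exact permutation p = 0.00794, the smallest that 5 against 5 allow). Leaving out B1/P/Rbf tumor 3 or B1/P tumor 1 took the adjusted p to 0.0537 and 0.0539. Among P/Rbf tumors 4 of 5 lay below the B1/P tumors and P/Rbf tumor 4, at 37.0 CPM, did not. The log2 fold change of -1.27 missed the threshold (SE 0.44, adjusted p = 0.0526). It passed with DESeq2 (adjusted p = 0.0245), with limma-voom (0.0298), without TMM (0.0474), without B1/P tumor 4 or 5 (0.0485 and 0.0369) and, at -1.84, without P/Rbf tumor 4 (0.00694), and was -0.45 with the library term (adjusted p = 0.62).

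Apln encodes apelin, a peptide that tip cells secrete to endothelial cells carrying the receptor Aplnr (chromosome X, 48025146 to 48034853, minus strand). It stood at 2.93, 5.43 and 3.42 CPM in normal glands, and at 24.6, 20.4, 14.5, 21.4 and 22.8 CPM in B1/P/Rbf tumors. It was 98.4, 104, 13.8, 41.8 and 26.8 CPM in B1/P tumors, and 17.1, 15.8, 18.4, 35.7 and 19.4 CPM in P/Rbf tumors. B1/P tumor 3 was the lowest of all 15 tumors, while the other B1/P tumors included the 3 highest. Against normal gland Apln was 5.27-fold higher in B1/P/Rbf (log2 fold change 2.40, SE 0.55, adjusted p = 0.00283), 14.5-fold higher in B1/P (3.85, SE 0.60, adjusted p = 0.000128) and 5.42-fold higher in P/Rbf tumors (2.44, SE 0.56, adjusted p = 0.00244).

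Apln was lower in B1/P/Rbf tumors than in those of B1/P by edgeR (log2 fold change -1.46, SE 0.44, adjusted p = 0.0308) and lower in P/Rbf than in B1/P tumors (-1.42, SE 0.44, adjusted p = 0.0316). The groups overlapped, and exact permutation tests gave p = 0.0952 and 0.111. These 2 calls depend on the fit: limma-voom gave adjusted p values of 0.141 and 0.134, a fit of only the groups compared 0.0768 and 0.111, and the library term took the latter to -0.69 (adjusted p = 0.426). They were also lost without any 1 of B1/P/Rbf tumors 2 to 5 (the former) or P/Rbf tumors 1, 2, 3 and 5 (the latter; adjusted p up to 0.0728), without B1/P tumor 1 (-1.17 and -1.13, adjusted p = 0.0856 and 0.0865) and without B1/P tumor 2 (-1.12 and -1.09, adjusted p = 0.0788 and 0.083).

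Esm1 and Apln are shown as the members with the largest rises, in chr13:113209409-113209708 on the plus strand and chrX:48034804-48035103 on the minus strand, written as for Kdr and Tek.
Esm1: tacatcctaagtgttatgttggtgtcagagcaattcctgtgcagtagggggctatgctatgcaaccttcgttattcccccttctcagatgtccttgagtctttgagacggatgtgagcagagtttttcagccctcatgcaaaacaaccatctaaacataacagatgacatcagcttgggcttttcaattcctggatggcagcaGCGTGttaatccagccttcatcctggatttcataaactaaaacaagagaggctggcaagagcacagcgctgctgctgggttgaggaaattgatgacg
Apln: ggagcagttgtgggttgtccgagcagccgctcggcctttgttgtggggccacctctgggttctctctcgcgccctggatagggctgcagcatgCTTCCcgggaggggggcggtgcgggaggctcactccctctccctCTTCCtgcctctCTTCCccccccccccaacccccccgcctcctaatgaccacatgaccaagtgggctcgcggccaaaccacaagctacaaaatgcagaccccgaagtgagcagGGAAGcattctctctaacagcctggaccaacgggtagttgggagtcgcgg
The Esm1 window held GCGTG once, 47 bases before the start, and no GGAAG. The Apln window held 4 matches to GGAAG, 3 of them on the opposite strand, and neither form of the hypoxia core. The windows of these 2 genes that rose together thus shared none of the motifs searched.

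Angpt2 encodes angiopoietin 2, which tip cells release and which can antagonise Tie2 (chromosome 8, 18690263 to 18741562, minus strand, inside Mcph1 on the opposite strand without sharing an exon). It was 6.49, 4.12 and 5.21 CPM in normal glands. The B1/P/Rbf tumors had 17.6, 15.6, 8.60, 13.8 and 14.9 CPM, the B1/P tumors 46.9, 53.9, 24.0, 22.4 and 20.3 CPM, and the P/Rbf tumors 8.57, 16.3, 8.15, 18.0 and 12.1 CPM. The B1/P tumors stood above all others and the glands below all tumors, with no overlap. Against normal gland Angpt2 was 2.68-fold higher in B1/P/Rbf (log2 fold change 1.42, SE 0.40, adjusted p = 0.00982), 6.35-fold higher in B1/P (2.67, SE 0.42, adjusted p = 0.000147) and 2.39-fold higher in P/Rbf tumors (1.26, SE 0.39, adjusted p = 0.0183). The last of these was lost without normal gland 2 or 3 (adjusted p = 0.0641 and 0.0606).

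Angpt2 fell by 1.25 on the log2 scale in B1/P/Rbf against B1/P tumors (SE 0.33, adjusted p = 0.0159) and by 1.41 in P/Rbf against B1/P tumors (SE 0.33, adjusted p = 0.0079). Exact permutation tests gave p = 0.00794 for both, the smallest possible. The former passed in every alternative in which Angpt2 was tested (adjusted p of at most 0.0419). The labels number the libraries from 1 to 18 without a break. A split between 8 and 9, chosen in the analysis and not given by the labels, puts B1/P tumors 1 to 3 beside the B1/P/Rbf tumors and 4 and 5 beside the P/Rbf tumors and glands. On the first side Angpt2 was 8.60 to 17.6 CPM in B1/P/Rbf tumors and 24.0 to 53.9 CPM in 3 B1/P tumors, and on the second 8.15 to 18.0 CPM in P/Rbf tumors and 20.3 and 22.4 CPM in only 2 B1/P tumors. A fit with a term for the 2 sides gave -0.76 for P/Rbf against B1/P (adjusted p = 0.2). B1/P/Rbf tumors and glands have no side in common, and with that term the B1/P/Rbf rise over glands was 0.46 for Angpt2 (adjusted p = 0.585) and 1.33 for Apln (adjusted p = 0.224). For Esm1 the B1/P/Rbf rise was 2.94 with that term and was still called (adjusted p = 0.0134), and the B1/P rises were 2.02 for Angpt2, 3.12 for Apln and 4.89 for Esm1, all called.

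Vegfc encodes the ligand of VEGFR3 that drives lymphatic growth (chromosome 8, 54077606 to 54187096, plus strand). It was 3.56, 2.23 and 3.22 CPM in normal glands. In B1/P/Rbf tumors it was 2.13, 1.48, 1.05, 1.52 and 4.02 CPM, in B1/P tumors 1.75, 24.6, 6.11, 4.02 and 14.1 CPM, and in P/Rbf tumors 4.29, 1.99, 1.14, 1.53 and 1.02 CPM. B1/P tumors 2, 3 and 5 exceeded every other sample, and B1/P tumor 1 lay among the T121 tumors. Vegfc was lower in B1/P/Rbf tumors than in those of B1/P (log2 fold change -2.31, SE 0.63, adjusted p = 0.02) and lower in P/Rbf than in B1/P tumors (-2.34, SE 0.64, adjusted p = 0.0172), with an exact permutation p of 0.0397 for each. Neither call held with limma-voom (adjusted p = 0.0582 and 0.0954) or in a fit of only the groups compared (0.0518 and 0.0651), and the latter was also lost with the library term (-2.18, adjusted p = 0.0793). Without B1/P tumor 2 the former value was -1.67 (adjusted p = 0.0583), and without B1/P/Rbf tumor 2 its adjusted p was 0.0503. When single mice were left out, the P/Rbf against B1/P value ran from -2.77 to -1.70 and was called each time (adjusted p of at most 0.0497). Against normal gland Vegfc passed in no group by edgeR: the log2 fold change was 1.75 in B1/P (SE 0.75, adjusted p = 0.0812), -0.56 in B1/P/Rbf and -0.59 in P/Rbf tumors (SE 0.69 for both). The B1/P rise was called by DESeq2 (adjusted p = 0.032), without TMM (2.10, adjusted p = 0.036) and without B1/P tumor 1 (2.02, adjusted p = 0.0341). With single mice left out that rise ran from 1.11 to 2.02 (adjusted p up to 0.22).

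Lyve1, the hyaluronan receptor of lymphatic endothelium (chromosome 7, 110850607 to 110863239, minus strand), was 14.4, 7.46 and 6.94 CPM in normal glands. The B1/P/Rbf tumors had 4.31, 0.755, 0.165, 1.62 and 3.64 CPM, the B1/P tumors 1.05, 42.0, 2.31, 2.48 and 2.68 CPM, and the P/Rbf tumors 0.489, 0.473, 0.152, 0.368 and 0.136 CPM. The P/Rbf tumors rested on 4 to 17 read pairs each and lay below all B1/P tumors and all glands, while B1/P tumor 2 alone exceeded the glands. Lyve1 was lower in P/Rbf than in B1/P tumors (log2 fold change -4.95, SE 1.10, adjusted p = 0.00579; exact permutation p = 0.00794) and lower in P/Rbf tumors than in normal gland (-4.87, SE 1.14, adjusted p = 0.00291). The former was -2.71 without B1/P tumor 2 (adjusted p = 0.0151), -3.06 with limma-voom (adjusted p = 0.0524) and -2.98 with the library term (adjusted p = 0.0896). B1/P/Rbf against B1/P tumors gave -2.27 (SE 0.96, adjusted p = 0.115), which DESeq2 called (adjusted p = 0.0452) and which was -0.02 without B1/P tumor 2 (adjusted p = 0.987). B1/P/Rbf against normal gland gave -2.19 (SE 1.04, adjusted p = 0.109). Over the alternative fits that value ran from -4.74 to -1.81 and was never called (adjusted p of at least 0.055). B1/P against normal gland gave 0.08 (SE 1.06), and without B1/P tumor 2 it was called lower, at -2.17 (adjusted p = 0.042).

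Some macrophages carry Lyve1, so macrophage genes are given beside it. Cd163, a macrophage scavenger receptor, was 47.8 CPM in B1/P tumor 2, 3.94 to 7.44 CPM in the other B1/P tumors, 0.594 to 7.15 CPM in tumors of B1/P/Rbf, 0.204 to 1.75 CPM in P/Rbf tumors and 4.84 to 16.3 CPM in normal glands. Of 9 macrophage markers, Mrc1, Cd163 and Folr2 were lower in P/Rbf than in B1/P tumors (adjusted p = 0.0223, 0.00498 and 0.0373). Against glands, P/Rbf tumors had 1 of the 9 called higher and 3 lower, while B1/P/Rbf tumors had 2 higher and 1 lower and B1/P tumors 5 higher and 1 lower. In the same order 17.4%, 17.1% and 16.8% of all genes were higher and 20.3%, 20.0% and 16.9% lower. The summed level of the 9 was 198 to 445 CPM in P/Rbf, 282 to 1270 CPM in B1/P, 164 to 607 CPM in tumors of B1/P/Rbf and 225 to 325 CPM in normal glands. Their part in the Lyve1 difference was not tested. Of 7 lymphatic genes, Pdpn and Reln were lower in both T121 groups than in B1/P tumors. Of all genes 9.29% were lower in B1/P/Rbf and 10.8% in P/Rbf than in B1/P tumors. Podoplanin (Pdpn) was 2.10 to 15.7 CPM in the P/Rbf tumors, 3.08 to 14.8 CPM in the B1/P/Rbf tumors and 32.1 to 46.7 CPM in the B1/P tumors. Reln was 0.0526 to 0.259 CPM in P/Rbf and 0.110 to 0.747 CPM in B1/P/Rbf tumors. The B1/P tumors had 15.3, 0.0889, 20.5, 0.858 and 9.24 CPM of Reln, with B1/P tumor 2 among the T121 tumors. Prox1, the defining factor of lymphatic endothelium, was at most 1.26 CPM in B1/P tumors and at 2.17 to 3.83 CPM in glands, and reached 26.7 CPM in B1/P/Rbf tumor 5 and 21.2 CPM in P/Rbf tumor 5. Ccl21a, a chemokine of lymphatic endothelium and lymph nodes, was 192 to 281 CPM in glands and at most 7.91 CPM in tumors. Over 5 lymphatic endothelial markers (Prox1, Flt4, Mmrn1, Reln, Ccl21a) the sum was 204 to 297 CPM in glands, most of it Ccl21a, and 3.85 to 37.3 CPM in tumors. Flt4, which encodes VEGFR3, was 4.84 to 6.18 CPM in glands, 5.68 to 16.6 CPM in B1/P/Rbf, 8.83 to 15.6 CPM in B1/P and 3.57 to 18.2 CPM in P/Rbf tumors.

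The glands and tumors differ in their other cells too. Of 8 adipocyte markers, all were called lower in each tumor group, with sums of 23500 to 33000 CPM in glands and 8.00 to 210 CPM in tumors. All 4 skeletal muscle markers and all 4 lymphocyte markers were called lower in each tumor group as well, with sums of 20500 to 40200 CPM and 232 to 308 CPM in glands, and of at most 553 CPM and 8.67 CPM in tumors. The part of these tissues in the falls of Kdr, Pecam1, Cdh5, Tek and Lyve1 was not tested. Capillary genes, several of which adipocytes or muscle also use, fell with them: 6 of 6 were called lower in B1/P/Rbf, 5 in B1/P and 5 in P/Rbf tumors, among them Gpihbp1, which carries lipoprotein lipase across capillaries, from 47.7 to 61.7 CPM in glands to 3.77 to 27.2 CPM in tumors. Of all genes 20.0%, 16.9% and 20.3% were called lower than in glands in B1/P/Rbf, in B1/P and in P/Rbf tumors. In P/Rbf against B1/P tumors 3 of the 6 were lower, where 10.8% of all genes were. In B1/P/Rbf against P/Rbf tumors Cd36 was higher, where 0.219% of all genes were. Epithelial markers summed to 1380 to 1770 CPM in glands, 1600 to 3590 CPM in B1/P, 2450 to 4840 CPM in B1/P/Rbf and 4640 to 8970 CPM in P/Rbf tumors. Within that sum the means of Krt5 and Krt14 went the other way between tumor groups, though neither was called lower in a T121 group than in B1/P tumors. Their means were 490 and 403 CPM in B1/P, 14.4 and 59.9 CPM in B1/P/Rbf, and 82.4 and 280 CPM in P/Rbf tumors. Brca1 and Trp53 were counted over the whole gene, so their levels do not check the deletions: Brca1 was 8.13 to 27.9 CPM in B1/P and 21.1 to 45.0 CPM in tumors of B1/P/Rbf, against 44.9 to 116 CPM in P/Rbf tumors and 4.61 to 5.99 CPM in glands, and Trp53 was 6.75 to 24.3 CPM in tumors against 54.4 to 71.8 CPM in glands. The study reported recombination by PCR in all its tumors. By RT-qPCR it found Brca1 expression lost in the sequenced B1/P and B1/P/Rbf tumors, only in part in B1/P/Rbf tumor 3 (45.0 CPM here).

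To set each member against the endothelial RNA of its own sample, its log2 CPM was compared with the mean of 10 endothelial genes that are no members (Cldn5, Tie1, Egfl7, Esam, Emcn, Robo4, Erg, Clec14a, Mmrn2 and Ecscr). This reference was 4.79 ± 0.07 in normal glands (SD, n = 3), 3.45 ± 0.76 in B1/P/Rbf, 3.81 ± 0.63 in B1/P and 3.09 ± 0.85 in P/Rbf tumors (SD, n = 5 each). Of the 10 genes, 3, 2 and 4 were called lower than in normal gland in B1/P/Rbf, in B1/P and in P/Rbf tumors. Of all genes 20.0%, 16.9% and 20.3% were. Cldn5, the claudin of tight junctions, fell most, by 3.29, 2.99 and 3.61 on the log2 scale. Differences from the reference are described without a test.

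Measured this way, the mean difference of Kdr, Pecam1 and Cdh5 from the reference changed by -0.54 to 0.21 between glands and the tumor groups, and only Kdr and Pecam1 in B1/P tumors lay below all glands. With the median of the 10 genes as the reference the changes ran from -0.82 to -0.07. Tek fell beyond the reference, from 0.13 ± 0.38 in glands to -1.56 ± 0.34, -1.85 ± 0.23 and -1.65 ± 0.47 in B1/P/Rbf, in B1/P and in P/Rbf tumors, with no overlap. Esm1 rose from -5.15 ± 0.38 to 0.16 ± 0.94, 1.32 ± 0.61 and 0.66 ± 0.69. Apln went from -2.85 ± 0.41 to 0.91 ± 0.70, 1.64 ± 1.45 and 1.26 ± 0.62, and Angpt2 from -2.40 ± 0.36 to 0.33 ± 0.67, 1.13 ± 0.71 and 0.51 ± 0.49. In all 3 genes each tumor exceeded each gland. Flt1 also stood above the glands in all 15 tumors on this scale, at 1.05 ± 0.06 in glands and 2.54 ± 1.35, 1.97 ± 0.53 and 3.63 ± 1.33 in the tumor groups, although its plain CPM did not.

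**Figure D3:**
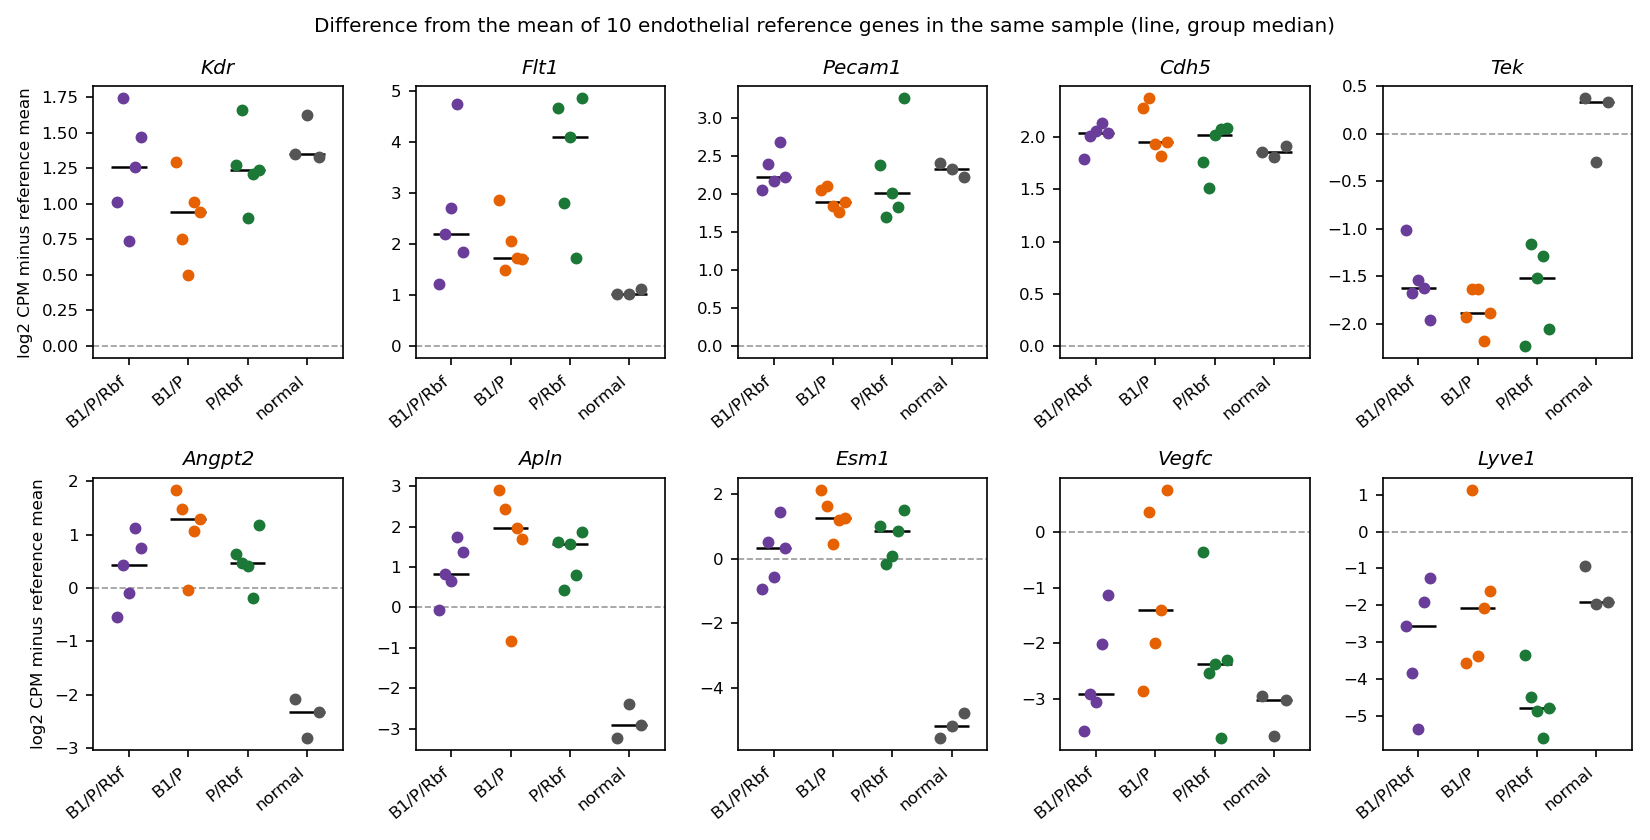
Difference of each member's log2 CPM from the mean log2 CPM of 10 endothelial reference genes in the same sample, 1 point per mouse with group medians as lines and a dashed line at 0. Esm1 lies between -5.52 and -4.76 in the glands and between -0.93 and 2.12 in the tumors.

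The reference averaged 3.45 in B1/P/Rbf, 3.09 in P/Rbf and 3.81 in B1/P tumors. Subtracting it makes the fall of any gene in T121 tumors smaller by a fixed amount. Relative to the reference, the differences of the tip-cell genes and Vegfc between T121 and B1/P tumors were thus smaller than in plain log2 CPM. Angpt2 differed by -0.80 in B1/P/Rbf against B1/P tumors and by -0.63 between P/Rbf and B1/P tumors. Esm1 differed by -1.16 and -0.66, Apln by -0.73 and -0.37, and Vegfc by -1.51 and -1.22 in the same comparisons. All of these overlapped between groups, and the fall of Angpt2 in T121 tumors, free of overlap in CPM, was no longer so. Flt1 went the other way, at 1.66 in P/Rbf against B1/P and -1.09 in B1/P/Rbf against P/Rbf tumors. Its mean log2 CPM without the reference was 5.99, 5.78 and 6.72 in B1/P/Rbf, in B1/P and in P/Rbf tumors. The fitted log2 fold changes, 0.82 and -0.56, are another measure. Set against the reference, Kdr, Pecam1 and Tek differed by 0.35, 0.38 and 0.29 in B1/P/Rbf against B1/P tumors, and Cdh5 by -0.06. In P/Rbf against B1/P tumors Kdr, Pecam1 and Tek differed by 0.36, 0.31 and 0.20, and Cdh5 by -0.18, all with overlap. The mean of the reference was itself lower in both T121 groups than in B1/P tumors, with overlap.

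The members were also compared within groups. After group means were subtracted, Kdr, Pecam1, Cdh5 and Tek rose and fell together over the 15 tumors, with Pearson r from 0.76 to 0.93 between pairs and from 0.85 to 0.98 with the reference. Among the tip-cell genes r was 0.82 for Angpt2 and Esm1, 0.74 for Angpt2 and Apln and 0.64 for Apln and Esm1. To Kdr, Pecam1, Cdh5 and Tek, Angpt2 had r of 0.73, 0.66, 0.65 and 0.54, Esm1 0.60, 0.69, 0.62 and 0.41, and Apln 0.29, 0.25, 0.33 and 0.13. Apln followed the reference little (r = 0.16), while Angpt2 (0.57) and Esm1 (0.49) did so in part. Vegfc and Lyve1 went together (r = 0.79, and 0.66 without B1/P tumor 2), with 0.06 and 0.35 to the reference. Flt1 followed none of the pan-endothelial genes, with r of -0.21 to Kdr, -0.05 to Cdh5, -0.12 to Tek and 0.16 to Pecam1, and r of -0.39 to -0.02 to Kdr when any 1 tumor was left out. Within each tumor all genes come from 1 library and share its depth, and these correlations carry no test.

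**Figure D4:**
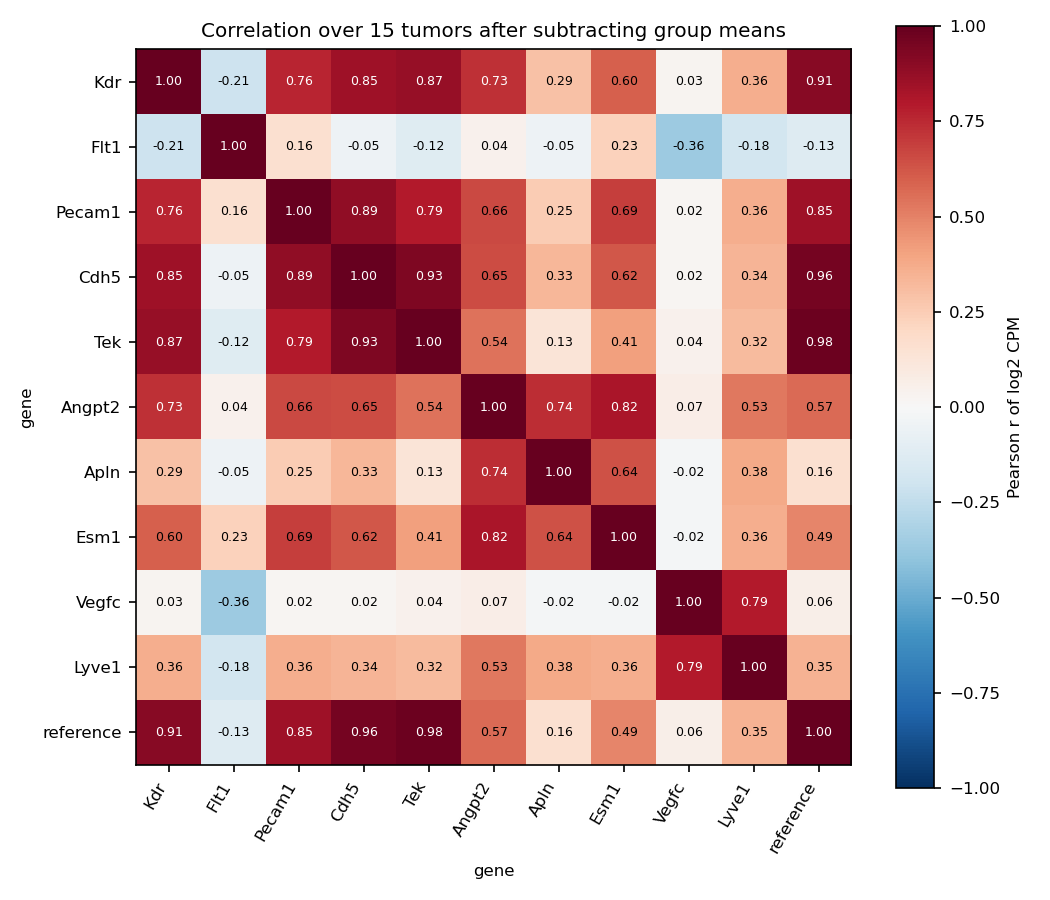
Pearson correlation of log2 CPM between the 10 members and the endothelial reference mean over 15 tumors, after each group's mean was subtracted, red for positive and blue for negative. Kdr, Pecam1, Cdh5, Tek and the reference form a block of 0.76 to 0.98, and the row of Flt1 runs from -0.36 to 0.23.

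Among 12581 other genes that averaged 5 CPM or more, those most like each member over the 15 tumors were ranked by the same correlation. Cdh5 was most like Cd93 (r = 0.98), Tek most like Tie1 (0.98), Kdr most like Mmrn2 (0.97) and Pecam1 most like Dll4 (0.92), all genes of endothelial cells. The genes most like Flt1 were Gnao1 (0.83), Snrpc (0.82), Taf11 (0.80), Supt20 (0.79) and Elob (0.79), among them splicing and transcription factors, and no gene of the endothelial lists. Angpt2 was most like Zfyve27 (0.92), Apln most like Scaf4 (0.92), Esm1 most like Ap5b1 (0.92) and Vegfc most like Ptgfrn (0.89). Their 5 most like genes likewise held no gene of the endothelial lists. All these values are the highest picked from 12581 genes over 15 tumors and carry no test. Lyve1 was most like Itgb5 (0.90) and had the macrophage gene Cd163 among its 5 most like genes (0.86, and 0.78 without B1/P tumor 2).

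Compared per kilobase of exon, the order of levels changed from gland to tumor. In normal glands Cdh5 (23.9 ± 0.283 CPM per kb) and Pecam1 (22.4 ± 2.20) led without differing beyond their spread, followed by Kdr (8.36 ± 1.35) and Tek (6.54 ± 1.39), and Esm1 was last (0.352 ± 0.0877). In B1/P tumors Esm1 (18.4 ± 8.71 CPM per kb), Apln (18.1 ± 13.2) and Cdh5 (15.5 ± 7.34) led, all within their spread, and Tek was last (0.930 ± 0.534). In B1/P/Rbf tumors Cdh5 (11.4 ± 5.82) and Pecam1 (9.41 ± 4.67) were first and Apln (6.59 ± 1.22) and Esm1 (6.15 ± 2.12) next. In P/Rbf tumors Cdh5 (8.87 ± 6.65), Flt1 (8.15 ± 2.71) and Esm1 (7.66 ± 5.78) led within their spread, and Lyve1 was last (0.111 ± 0.0584).

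The partners of the members were taken by role. Of 7 VEGF ligands and receptors, 1 was called higher in B1/P/Rbf tumors than in those of B1/P, the coreceptor Nrp1 (log2 fold change 1.50, SE 0.43, adjusted p = 0.0241), and none in P/Rbf against B1/P. Of all genes 7.36% and 8.43% were higher in these 2 comparisons. Vegfa, the main ligand of Kdr and Flt1, was 260 to 304 CPM in glands, 336 to 687 CPM in B1/P/Rbf, 173 to 1100 CPM in B1/P and 230 to 2350 CPM in P/Rbf tumors, and passed in no comparison. Vegfb, a ligand that binds Flt1 and not Kdr, fell by 2.61, 2.38 and 2.42 on the log2 scale in B1/P/Rbf, in B1/P and in P/Rbf tumors against glands (adjusted p = 3.64e-05, 0.000106 and 7.21e-05). Pgf, placental growth factor and likewise a ligand of Flt1, rose by 4.06 in B1/P (SE 1.26, adjusted p = 0.0196) and by 4.04 in P/Rbf tumors (SE 1.26, adjusted p = 0.0178), with 2.08 in B1/P/Rbf tumors (SE 1.13, adjusted p = 0.16). It was 3.11 to 3.79 CPM in glands and 10.3 to 123 CPM in B1/P tumors. The P/Rbf tumors had 29.6, 221, 7.52, 0.869 and 26.9 CPM, with tumor 2 far above the rest and tumor 4 below the glands. Nrp1 was lower in B1/P tumors than in glands. Of the 5 angiopoietin and Tie partners, none differed between tumor groups, and 2, 1 and 3 were called lower than in glands in B1/P/Rbf, in B1/P and in P/Rbf tumors. The shares of all genes called lower were 20.0%, 16.9% and 20.3%. The phosphatase Ptprb, which restrains Tie2, fell in all 3, from 77.5 to 88.2 CPM in glands to 6.30 to 35.4 CPM in tumors, and Angpt1, the ligand that activates Tie2, fell in B1/P/Rbf tumors (-2.55, SE 0.88, adjusted p = 0.0299). Neither apelin partner passed in any comparison: Aplnr was 27.4 to 30.9 CPM in glands and 3.47 to 51.3 CPM in tumors, and Apela was at 0 in all B1/P tumors and at most 1.58 CPM elsewhere.

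Of 12 other tip and stalk genes, 5 were called higher than in glands in tumors of B1/P/Rbf, 5 in B1/P and 3 in P/Rbf tumors, and none lower. Of all genes 17.1%, 16.8% and 17.4% were called higher and 20.0%, 16.9% and 20.3% lower. Unc5b, a netrin receptor of tip cells, rose in all 3, by 2.72, 2.95 and 2.84 on the log2 scale (adjusted p = 0.000882, 0.000594 and 0.000624), from 9.58 to 13.4 CPM in glands to 33.2 to 188 CPM in tumors. Kcne3, a potassium channel subunit of tip cells, rose by 1.76, 2.08 and 1.33 (adjusted p = 0.0123, 0.00539 and 0.0449). Pdgfb, by which tip cells recruit pericytes, rose by 1.35 in B1/P/Rbf and 1.86 in B1/P tumors (adjusted p = 0.0148 and 0.00246). Dll4 and Notch4, the Notch ligand and receptor of sprouting endothelium, passed in no comparison, at 7.56 to 31.1 CPM and 9.72 to 50.2 CPM in tumors. Between tumor groups only Hey2 was called, lower in P/Rbf than in B1/P tumors (-2.95, SE 0.84, adjusted p = 0.0216), where 10.8% of all genes were. It was 0.127 to 0.788 CPM in P/Rbf tumors and 0.731, 0.385, 0.729, 4.49 and 8.67 CPM in B1/P tumors. B1/P tumors 1, 2 and 3 thus lay within the P/Rbf range.

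Mural cells are the pericytes and smooth muscle that wrap vessels. Of 8 mural genes, 5 were lower in B1/P/Rbf and 7 in P/Rbf than in B1/P tumors, where 9.29% and 10.8% of all genes were. Pdgfrb, the receptor for Pdgfb, fell by 1.23 (SE 0.31, adjusted p = 0.013) and 1.45 (SE 0.31, adjusted p = 0.00509), from 94.6 to 199 CPM in B1/P tumors to 26.7 to 84.1 and 25.9 to 64.6 CPM, without overlap. Kcnj8, a potassium channel subunit of pericytes, fell by 1.68 and 2.21 (adjusted p = 0.00394 and 0.000888). Fibroblasts also express Pdgfrb, and of 8 fibroblast markers 1 was lower in B1/P/Rbf and 4 in P/Rbf than in B1/P tumors, with sums of 807 to 4700, 1240 to 3960 and 2530 to 12800 CPM in B1/P/Rbf, P/Rbf and B1/P tumors. The part of fibroblasts in the mural differences was not tested. Of 4 skeletal muscle markers 3 were lower in either comparison, and their sum was 553 CPM in B1/P tumor 5, which also had the most Des (35.1 CPM) of the tumors, and at most 20.4 CPM in the other tumors. Without B1/P tumor 5 the counts of mural genes called lower were 5 and 6 of 8. Of 4 tested platelet and red cell genes, Hbb-bs was lower in both T121 groups than in B1/P tumors, and sums were 33.9 to 97.0, 16.9 to 87.6, 35.7 to 286 and 278 to 736 CPM in B1/P/Rbf, P/Rbf and B1/P tumors and glands.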

How the data were processed

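RNA was sequenced from 18 mice, 5 tumors of each of 3 genotypes and 3 normal mammary glands (1 library for each mouse). The authors made stranded libraries, trimmed reads with Cutadapt 1.18 and deposited expected counts per gene from RSEM 1.3.0, neither normalized nor filtered. RSEM divides reads that match several genes, and 5.61% of all values, but none of the 180 values of the members, were not whole. A human reference is named in the methods, but each of the 55450 identifiers belongs to GENCODE M21 on GRCm38. Totals ran from 27661173 to 37794889 counts per sample (median 33802255), and replicates differed beyond counting noise (chi-square per degree of freedom 25.1 to 517), so spread between mice limits precision. The label numbers run from 1 to 18 without stated meaning.

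Counts were rounded and fitted in R 4.3.3 with edgeR 4.0.16 (filterByExpr with a minimum count of 10, TMM, glmQLFit and glmQLFTest over all 18 samples, group as the only term), and p values were adjusted by Benjamini-Hochberg over 19186 genes. The study's own fits used limma-voom with quantile normalization. For log2 CPM of single genes (prior count 2), two-sided exact permutation tests were run. Python 3.11.15 prepared tables. The edgeR, DESeq2 and limma-voom fits were first tested on simulated data for B1/P/Rbf against B1/P, in which 200 of 19186 genes had known changes. There edgeR called 46 of 106 genes changed 4-fold, 3 of 94 changed 2-fold and 4 unchanged genes. In the measured data 1413 genes were called higher and 1782 lower in that comparison. With more genes changed the adjustment of p values is less strict, so the recovery found describes the simulated data only. Alternatives were DESeq2 1.42.0, limma 3.58.1 (voom, quantile), library sizes without TMM, no filter, the filter of the study (a log2 CPM of 6 or more in 6 or more samples), only the groups compared, a term for libraries numbered 1 to 8 against 9 to 18 (a split the labels do not give), and leaving out each sample. Genes named were the members and fixed lists, and the 5 genes most like each member. The members and lists were chosen with earlier results of these data known. Promoter windows and their build came from RefSeq. Whether the counting used strand is not given in the sources used here.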

Additional observations from a re-analysis of the deposited data

Results flagged for a closer look

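The levels of the 10 members were checked in each of the 3 groups of 5 tumors for a single sample far from the rest, with a test that flags about 1 group in 20 by chance. Of 30 groups checked, 2 held such a sample. Apln in P/Rbf tumor 4 had a log2 CPM of 5.16 (35.7 CPM), and its gap to the next tumor was 0.749 of the group's range. The same tumor had the most Kdr, Pecam1, Cdh5, Tek, Angpt2 and Esm1 of its group and the least Flt1 (67.4 CPM), and it was neither the highest nor the lowest for Vegfc (1.53 CPM) and Lyve1 (0.368 CPM). Lyve1 in B1/P tumor 2 had a log2 CPM of 5.40 (42.0 CPM), with a gap of 0.751 of the range. That tumor also had the most Vegfc (24.6 CPM) and Cd163 (47.8 CPM) of its group.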

How the results depend on the processing

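No paired analysis was possible because the labels give no replicate numbers that groups share. Without TMM the median of all genes moved up by 0.35, 0.37 and 0.27 (log2) in B1/P, B1/P/Rbf and P/Rbf tumors against glands, and with limma-voom by 0.07, 0.15 and 0.15. In the counts of members called, 12 in all, values moved as follows, and the cause was not tested unless stated. The study's filter kept only Flt1, Pecam1 and Cdh5, which alone lowers the counts: 0 lower in B1/P/Rbf and in P/Rbf against B1/P, 0 higher in each tumor group against glands, and 1 and 2 lower in B1/P and P/Rbf tumors against glands. With limma-voom, and with only the groups compared, 2 members were lower in each T121 group against B1/P. With the library term 1 was higher and 0 lower in P/Rbf against B1/P, and 1 was higher in B1/P/Rbf tumors against glands. Without TMM 1 was lower in B1/P/Rbf and 1 in B1/P tumors against glands, and DESeq2 called 1 higher in B1/P/Rbf against P/Rbf. Leaving out each sample gave 2 to 4 lower in B1/P/Rbf against B1/P, and against glands 1 to 4 lower in B1/P/Rbf, 1 to 4 in B1/P and 3 to 5 in P/Rbf tumors.

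Log2 fold changes of members that no fit called in the main analysis changed sign as follows. With the library term, B1/P/Rbf against B1/P became -0.17 for Kdr, -0.16 for Flt1, -0.35 for Pecam1 and -0.29 for Tek; P/Rbf against B1/P became 0.38 for Kdr, 0.36 for Pecam1, 0.10 for Cdh5 and 0.67 for Tek. B1/P/Rbf against P/Rbf became -0.55 for Kdr, -0.71 for Pecam1, -0.93 for Cdh5, -0.96 for Tek, -0.80 for Angpt2 and -0.22 for Vegfc, and values against glands became -1.03 for Flt1 in B1/P/Rbf and -0.87 for Flt1 and -1.89 for Lyve1 in B1/P tumors. With limma-voom Kdr became -0.01 in B1/P/Rbf against B1/P, Flt1 -0.06 and Lyve1 -0.97 in B1/P against glands, Apln 0.01 and Vegfc -0.27 in B1/P/Rbf against P/Rbf, and Vegfc 0.27 in P/Rbf against glands. With the study's filter Flt1 became -0.12 in B1/P against glands and Pecam1 -0.04 in B1/P/Rbf against B1/P, and without TMM Apln became 0.05 in B1/P/Rbf against P/Rbf.

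Leaving out each sample, B1/P/Rbf against B1/P ran from -0.22 to 0.26 for Kdr, -0.29 to 0.50 for Flt1, -0.34 to 0.20 for Pecam1 and -0.68 to 0.43 for Tek, and P/Rbf against B1/P from -0.55 to 0.04 for Kdr and -0.86 to 0.03 for Tek. B1/P/Rbf against P/Rbf ran from -0.06 to 0.64 for Kdr, -0.00 to 0.93 for Cdh5, -0.40 to 0.97 for Tek, -0.13 to 0.23 for Apln, -0.52 to 0.26 for Esm1 and -0.37 to 0.51 for Vegfc. Against glands Flt1 ran from -0.17 to 0.58 in B1/P/Rbf and -0.11 to 0.32 in B1/P tumors, and Lyve1 from -2.17 to 0.50 in B1/P tumors. With the median in place of the mean of the reference, Kdr relative to it changed by -0.65, -0.82 and -0.57 in B1/P/Rbf, in B1/P and in P/Rbf tumors against glands. Pecam1 changed by -0.48, -0.67 and -0.48, Cdh5 by -0.32, -0.07 and -0.36, and Tek by -2.15 in B1/P/Rbf tumors. With limma-voom some called rises over glands were over 1.5 times larger as folds off the log2 scale. In log2 these were Angpt2 in P/Rbf (1.86 against 1.26) and Apln in B1/P/Rbf and P/Rbf (3.05 and 3.04 against 2.40 and 2.44). Esm1 in B1/P/Rbf and B1/P tumors was another (4.78 and 6.29 against 4.12 and 5.70). The fall of Lyve1 in P/Rbf tumors was smaller (-4.03 against -4.87). Members with few read pairs, Lyve1 in P/Rbf tumors and Esm1 in glands, are limited by depth.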
